A study of Mus musculus with 13 samples.

Results

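The genes described here are the nuclear genes of the mitochondrial respiratory chain, taken by symbol from the deposited table: every gene whose symbol begins with Nduf, Uqcr, Atp5 or Cox4 to Cox8, and the Sdh genes. They numbered 90 of the 13222 genes listed. Of these, 35 encode subunits of complex I and 8 encode complex I assembly factors, 3 belong to complex II, 7 to complex III, 14 to complex IV and 17 to complex V, and 6 are retrocopies or pseudogenes of members. The cells were 4T1-Thy1.1, the mouse mammary carcinoma line 4T1 with a Thy1.1 transgene, and the libraries counted 3′ ends of messenger RNA from whole cultures. The 4 conditions were compared after 48 h: untreated control (n = 3), the anthracycline doxorubicin (DOX) at 200 ng/mL (n = 4), DOX at 200 ng/mL with recombinant mouse IL-17A at 25 ng/mL (DOX+IL-17A, n = 3), and IL-17A alone at 25 ng/mL (n = 3). The comparisons asked how DOX changed expression with and without this cytokine, and whether IL-17A itself did so. Libraries carry the numbers of their labels (control 1, 3 and 5, DOX 1 to 4, and 2, 3 and 5 in both IL-17A groups). The study's methods speak of biological replicates for its data in general, but no label ties these libraries to separate cultures, so p-values measure the spread between these libraries, which may be technical.

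Complexes I to IV pass electrons from NADH and succinate to oxygen, complexes I, III and IV move protons across the inner mitochondrial membrane as they do so, and complex V uses the proton gradient to make ATP. Nearly all of their subunits are encoded in the nucleus, with a core set from mitochondrial DNA that was not analysed here. Assembly factors help build the complexes and mostly leave them when they are finished. In tumour cells the chain also regenerates the electron acceptors that biosynthesis needs.

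Each library held 4445592 to 16930600 reads on the listed genes, and values are given as normalised reads, the deposited values, which are reads scaled for library size and composition. Of the 90 members, 89 had enough reads to be tested among 12319 genes; Atp5d, the delta subunit of complex V, was the one left out, with at most 12 reads in any library. The first principal component over all tested genes (40.1% of the variance) separated the 7 DOX-treated libraries from the other 6, and control 1 stood apart on the second component (20.5%) at 74.7, against -42.9 to 23.4 for the other 12 libraries. The 5 epithelial markers (Epcam, Krt8, Krt18, Krt7 and Cdh1) were present in every library, with a summed value of 1707 to 2130 in control, 1438 to 1782 with IL-17A, 887 to 984 with DOX and 770 to 980 with DOX+IL-17A, and 4 of the 5 fell in DOX vs control. The sum of 12 skeletal muscle markers was 313 in DOX 1 and 10.6 to 55.0 elsewhere, and that of 3 red blood cell markers was 66.5 in DOX 1 and 0 to 14.4 elsewhere. The sum of 2 immune markers was 3.65 to 19.1 in control and 24.1 to 29.1 with DOX, and that of 1 liver marker was at most 2.25. The part of these shifts in the results below was not tested. In such libraries, fewer cells of a type and less RNA per cell cannot be told apart.

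DOX changed single respiratory genes in both directions, more of them upwards than downwards. Against control, 10 members rose and 4 fell at a limma adjusted p under 0.05, which is 14 of 89 (15.7%) where 22.1% of all genes tested were called, 12.4% higher and 9.71% lower. Of these, 7 changed more than 2-fold (15.3% of all genes did). The genes that rose were the complex I assembly factors Ndufaf4 and Ndufaf2, the complex I subunits Ndufs5, Ndufb6 and Ndufb9, the complex III subunit Uqcrq, the complex IV subunits Cox5a, Cox5b and Cox6a1, and Atp5g1 of complex V. Those that fell were the assembly factor Ndufaf3, the subunits Ndufs4 of complex I and Uqcrh of complex III, and Atp5mpl of complex V. The median log2 fold change was 0.25 over the members and 0.09 over all genes, and 62 members lay above 0. By complex, the medians were 0.17 for complex I subunits, 0.09 for complex I assembly factors, -0.02 for complex II, 0.36 for complex III, 0.57 for complex IV and 0.21 for complex V. Fold changes are on the scale of log2(normalised reads + 1), which understates the change of low genes. With library size as the only scaling, the median of all genes moved to 0.24 and that of the members to 0.43. In that fit 18 members were called higher and 3 lower, which is 23.6% of members and 23.8% of all genes (71.7% of all called genes were higher, against 56.1%). Without control 1, 8 members rose and 6 fell (15.7% of members and 20.7% of all genes), and 11 of these were among the 14 above. Without control 3, 19 rose and 4 fell, which is 25.8% of members and 22.2% of all genes. Without control 5 the shares were 15.7% of members and 14.4% of all genes. Whether the members' share lay below or above that of all genes thus depended on single control libraries.

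**Figure D1:**
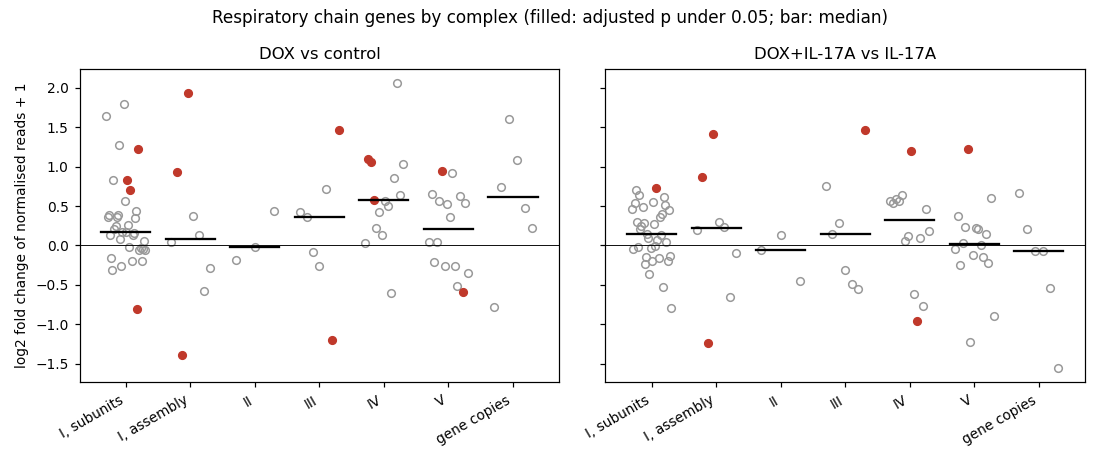
The log2 fold change (vertical axis) of each of the 89 tested members is drawn by complex for DOX vs control (left) and DOX+IL-17A vs IL-17A (right), with a bar at each group's median. Filled points passed at an adjusted p under 0.05. Changed members stand in both directions in complex I, its assembly factors and complex III on the left, while 13 of the 14 complex IV members lie above 0 there. Control 1, the library with the lowest share on complex IV, is part of the values on the left.

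The assembly factors of complex I held the largest rise and the largest fall among the members called. Ndufaf4 (chr4:24898083-24905001, mm10) was at 15.2, 15.6 and 6.25 normalised reads in control, 37.6, 46.6, 55.6 and 48.5 with DOX, 28.5, 18.1 and 15.2 with IL-17A and 53.2, 64.2 and 47.3 with both agents. Every DOX-treated library lay above every untreated one, and the log2 fold change in DOX vs control was 1.93 ± 0.31 (SE, limma adjusted p = 0.000682). Ndufaf3 (chr9:108565537-108567434), whose product works in a pair with that of Ndufaf4, moved the other way. It was at 16.6, 15.0 and 13 in control and 6.36, 4.71, 3.91 and 5.28 with DOX, with no overlap (log2 fold change -1.39 ± 0.31, limma adjusted p = 0.00519). Annotated exons of Impdh2 lie on the other strand over its 3′ end, and without a stated strand setting the reads of both cannot be told apart. The same holds for Ndufb6 and Smim27. Ndufaf2, a factor of the late steps of assembly and a relative of the subunit Ndufa12, was at 33.0, 32.1 and 33.4 in control. With DOX it was at 54.6, 59.9, 69.8 and 71.5, again without overlap (log2 fold change 0.93 ± 0.20, limma adjusted p = 0.00516). The other 5 assembly factors, Ndufaf1, Ndufaf5, Ndufaf6, Ndufaf7 and Ndufaf8, did not pass, with log2 fold changes from -0.58 for Ndufaf7 to 0.37 for Ndufaf5. The calls on Ndufaf4, Ndufaf3 and Ndufaf2 held whichever single library was left out.

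Of the 35 complex I subunits, 3 rose and 1 fell. Ndufs5 (chr4:123712710-123718202), an accessory subunit on the intermembrane side, was at 22.2, 53.3 and 46.1 in control and 70.3, 96.8, 97.4 and 98.7 with DOX. The groups did not overlap, and control 1 was the lowest library (log2 fold change 1.22 ± 0.26, limma adjusted p = 0.00421, and 0.85 with an adjusted p of 0.00646 without control 1). Ndufb9, an accessory subunit of the membrane arm, was at 471, 391 and 434 in control and 603, 661, 745 and 824 with DOX (log2 fold change 0.71 ± 0.20, limma adjusted p = 0.0215). Ndufb6, of the same arm, was at 28.3, 54.1 and 46.9 and 70.6, 84.7, 64.6 and 81.3 (log2 fold change 0.83 ± 0.25, limma adjusted p = 0.0281). Ndufs4 (chr13:114287795-114388258), an accessory subunit of the matrix arm that is needed for a stable enzyme, fell. Its values were 149, 99.5 and 128 in control and 59.5, 72.4, 80.4 and 70.2 with DOX, again without overlap (log2 fold change -0.81 ± 0.21, limma adjusted p = 0.0120). The largest estimate of any complex I subunit, 1.80 for Ndufb3, came with a control group at 10.8, 251 and 105 and did not pass (limma adjusted p = 0.0898).

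Complex II, the succinate dehydrogenase shared with the citric acid cycle, gave no call. Sdha, its flavoprotein, was at 98.3, 139.6 and 171 in control and 108, 118, 112 and 129.7 with DOX (log2 fold change -0.18 ± 0.22, limma adjusted p = 0.569). Sdhb, the iron-sulphur subunit, was at 233 ± 45.4 (SD, n = 3) in control and 228 ± 36.2 (SD, n = 4) with DOX (log2 fold change -0.02 ± 0.26, limma adjusted p = 0.958). The 95% interval of the log2 fold change ran from -0.57 to 0.53, so smaller changes than these could not be told from none. Sdhc, a membrane anchor, was at 26.2, 133 and 77.1 in control, a spread wider than its difference from DOX at 88.1 ± 8.87 (SD, n = 4) (log2 fold change 0.43 ± 0.50, limma adjusted p = 0.558). Sdhd was not analysed here.

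In complex III, 1 small subunit rose and another fell. Uqcrq (chr11:53427922-53430831), a small subunit of the membrane part, was at 103, 146 and 132 in control, 315, 355, 337 and 386 with DOX, 183, 130.5 and 122 with IL-17A and 416, 350.1 and 426 with both agents. All 7 DOX-treated libraries lay above all 6 others, and the estimate in DOX vs control was 1.46 ± 0.19 (SE, limma adjusted p = 0.000162), the smallest p of any member. Uqcrh (chr4:116066965-116075071), the acidic hinge subunit next to cytochrome c1, was at 599.5, 232 and 330.3 in control and 159.8, 176, 143 and 145 with DOX (log2 fold change -1.20 ± 0.28, limma adjusted p = 0.00719). Control 1 was its highest library. Without control 1 the log2 fold change was -0.83, still called, and without control 1 and the 3 libraries numbered 5 it was -0.57 with an adjusted p of 0.0795. The pseudogene Gm12854 is annotated over its 3′ end, and reads could be shared with the copy Uqcrh-ps1. The core proteins Uqcrc1 and Uqcrc2, the Rieske protein Uqcrfs1, and Uqcrb and Uqcr10 did not pass, with log2 fold changes from -0.27 for Uqcrc2 to 0.71 for Uqcrfs1.

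Complex IV had the highest median log2 fold change of the complexes, with 3 of 14 members called, all higher. This median includes control 1, where complex IV took 0.233% of normalised reads, against 0.407% and 0.360% in controls 3 and 5. The median without control 1 is not given here. Cox5b (chr1:36691449-36693681), a subunit on the matrix side, was at 97.1, 214 and 211 in control and 329, 330.3, 349 and 362 with DOX. All DOX libraries lay above control (log2 fold change 1.06 ± 0.25, limma adjusted p = 0.00719). Cox5a, also on the matrix side, was at 55.5, 202 and 189 and 257, 328, 249 and 280.0 (log2 fold change 1.1 ± 0.35, limma adjusted p = 0.0366). Control 1 lay far below the other control libraries, and without it the estimate was 0.50 (adjusted p = 0.122). Cox6a1, the common form of subunit VIa, was at 352, 408 and 463 and 577, 632, 571 and 653 (log2 fold change 0.58 ± 0.17, limma adjusted p = 0.0245). Cox8a stood above control in all 4 DOX libraries, at 526 ± 172 (SD, n = 3) and 787 ± 59.5 (SD, n = 4), and did not pass (log2 fold change 0.64 ± 0.24, limma adjusted p = 0.0641). Cox4i1, the common form of subunit IV, was at 451 ± 104 (SD, n = 3) and 453 ± 37.5 (SD, n = 4) (log2 fold change 0.03 ± 0.20, limma adjusted p = 0.930). Cox6b1 (log2 fold change 0.42 ± 0.30, limma adjusted p = 0.316) and Ndufa4, once counted as a complex I subunit (log2 fold change 1.04 ± 0.52, limma adjusted p = 0.162), did not pass either.

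The muscle forms of complex IV were near the limit of detection. Cox6a2, the heart and muscle partner of Cox6a1, had 22 reads over the 3 control libraries, 61 over the 4 DOX libraries, 0 with IL-17A and 34 with both agents, and 38 of the DOX reads were in DOX 1, the library with the high muscle markers. In IL-17A, 0 reads allow up to 3 reads a library. Cox7a1, the muscle partner of Cox7a2, had 3 reads in control, 31 with DOX, 1 with IL-17A and 44 with both agents. The sum of the muscle markers was 10.8 to 19.6 with DOX+IL-17A and 10.6 to 23.7 with IL-17A. Cox7a2, the form that most cells use, was also low, at 1.21 ± 1.61 (SD, n = 3) normalised reads in control and 1.84 ± 1.40 (SD, n = 4) with DOX. Ndufa6 was likewise low, at 0 to 38 reads a library. The libraries counted 3′ ends only, and whether that lowered the values of Cox7a2 and Ndufa6 was not tested. The muscle form Cox8b, the alternative form Cox4i2 and the testis form Cox6b2 were not analysed here.

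In complex V, Atp5g1 rose and Atp5mpl fell. Atp5g1, Atp5g2 and Atp5g3 encode the same mature c subunit of the rotor ring with different import signals. Atp5g1 (chr11:96068852-96075670) was at 64.8, 43.0 and 39.0 in control, 74.7, 123, 86.1 and 93.9 with DOX, 54.4, 42.3 and 44.7 with IL-17A and 109, 96.1 and 131 with both agents, and the DOX-treated libraries lay above all others (log2 fold change 0.95 ± 0.23, limma adjusted p = 0.00900). Atp5g2 was at 93.6, 575 and 511 in control and 225, 243, 242 and 305 with DOX. Controls 3 and 5 stood above every DOX library and control 1 below them, and it did not pass (log2 fold change -0.26 ± 0.45, limma adjusted p = 0.706). Without control 1 its log2 fold change was -1.1, with a limma adjusted p of 0.00187. Atp5g3 did not pass (log2 fold change 0.53 ± 0.38, limma adjusted p = 0.336). Atp5mpl, a small membrane subunit, was at 361, 312 and 387 in control and 225, 266, 201 and 246 with DOX (log2 fold change -0.59 ± 0.18, limma adjusted p = 0.0321). Of the catalytic head, Atp5a1 had a log2 fold change of 0.05 and Atp5b of 0.65, and neither passed.

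**Figure D2:**
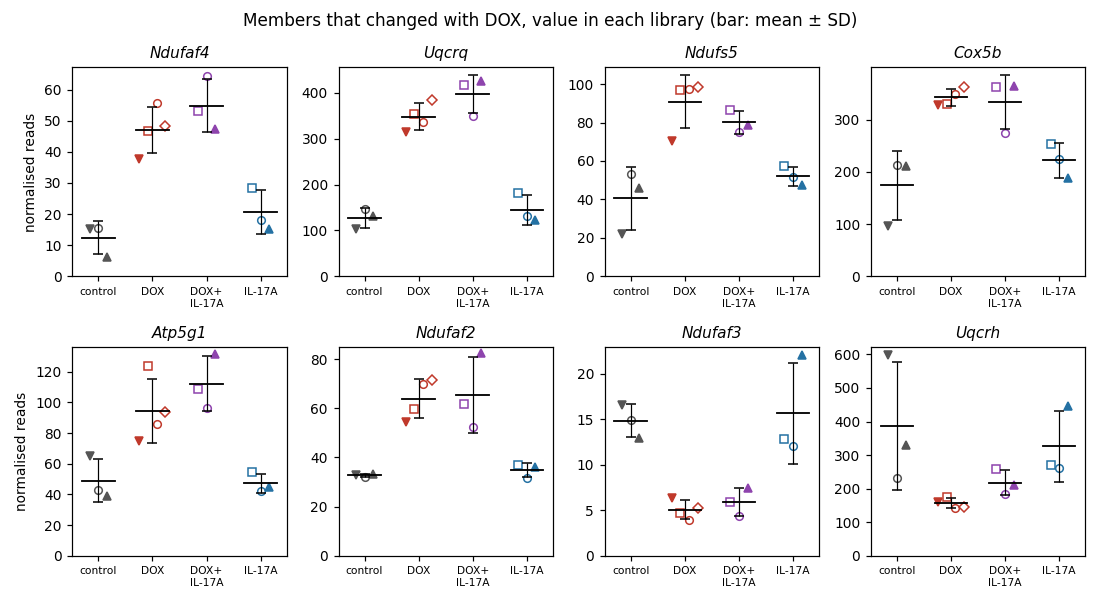
Normalised reads (vertical axis, from 0) of 8 members in each library, grouped by condition, with a bar at the mean and an error bar of 1 SD. Triangles pointing down mark libraries numbered 1, squares 2, circles 3, diamonds 4 and triangles pointing up 5. In Ndufaf4, Uqcrq, Atp5g1 and Ndufaf2 the 7 DOX-treated libraries lie above the other 6, in Ndufaf3 below them.

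Of the 14 calls, 9 held whichever single library was left out: Ndufaf4, Ndufaf2, Ndufaf3, Ndufs5, Ndufs4, Uqcrq, Uqcrh, Cox5b and Atp5g1. Of these, Ndufs4 was lost, as Uqcrh was, without control 1 and the 3 libraries numbered 5 together (log2 fold change -0.50, limma adjusted p = 0.168). Cox5a was lost without control 1 or without any one DOX library (limma adjusted p 0.0598 to 0.122). Cox6a1 was lost without control 1, control 3, DOX 2 or DOX 4 (adjusted p 0.0504 to 0.0701). Ndufb6 was lost without control 1, DOX 2 or DOX 4 (0.0711 to 0.0971), Ndufb9 without control 3, control 5, DOX 3 or DOX 4 (0.0571 to 0.0683), and Atp5mpl without control 5, DOX 1, DOX 3 or DOX 4 (0.0579 to 0.113). Over all 89 members, the DOX and control libraries did not overlap in 23, with DOX above in 18 and below in 5, where 33.7% of all genes tested did not overlap. For 13 of the 14 called genes an exact two-sided permutation test of the group means gave p = 0.0286, the smallest that 4 libraries against 3 allow, and for Atp5g1 it gave p = 0.0571. The genes were called from these same libraries, so the permutation values describe them and are not separate evidence.

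The letters of 4 motifs linked to respiratory genes were looked for in the promoters of the 71 members in the reference table. Those of 5 called members are shown, and the 3 of them that rose are the called risers with NRF1 letters. The motifs, on both strands, were NRF1 (GCGCA, any base, GCGC), the ETS motif bound by GABP (CCGGAAG), YY1 (AAGATGG) and ERR (AAGGTCA), and capitals mark a match. Each sequence holds the 250 bases before the RefSeq start (GRCm38.p6), written 5′ to 3′ on the gene's strand.
Ndufaf4, chr4:24897833-24898082, plus strand: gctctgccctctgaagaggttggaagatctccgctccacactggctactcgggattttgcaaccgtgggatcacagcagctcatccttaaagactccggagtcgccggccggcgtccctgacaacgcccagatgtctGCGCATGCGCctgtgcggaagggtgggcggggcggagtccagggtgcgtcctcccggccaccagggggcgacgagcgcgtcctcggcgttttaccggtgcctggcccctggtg
Ndufs5, chr4:123718187-123718436, minus strand: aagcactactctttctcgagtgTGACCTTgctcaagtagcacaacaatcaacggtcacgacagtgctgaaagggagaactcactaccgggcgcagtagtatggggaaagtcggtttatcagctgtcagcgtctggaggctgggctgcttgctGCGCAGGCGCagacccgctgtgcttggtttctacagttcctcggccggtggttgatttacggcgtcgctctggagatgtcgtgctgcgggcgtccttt
Cox6a1, chr5:115348959-115349208, minus strand: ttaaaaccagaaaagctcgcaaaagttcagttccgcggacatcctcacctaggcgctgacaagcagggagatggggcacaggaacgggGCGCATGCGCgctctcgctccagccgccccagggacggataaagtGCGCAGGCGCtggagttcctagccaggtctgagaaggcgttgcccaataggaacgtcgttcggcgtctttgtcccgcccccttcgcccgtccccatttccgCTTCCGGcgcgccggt
Uqcrh, chr4:116075071-116075320, minus strand: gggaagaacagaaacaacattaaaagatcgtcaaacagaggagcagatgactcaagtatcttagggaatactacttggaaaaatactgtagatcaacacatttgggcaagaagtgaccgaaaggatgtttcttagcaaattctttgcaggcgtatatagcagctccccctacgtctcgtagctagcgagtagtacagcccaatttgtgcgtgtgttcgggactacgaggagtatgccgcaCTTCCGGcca
Ndufaf3, chr9:108567437-108567686, minus strand: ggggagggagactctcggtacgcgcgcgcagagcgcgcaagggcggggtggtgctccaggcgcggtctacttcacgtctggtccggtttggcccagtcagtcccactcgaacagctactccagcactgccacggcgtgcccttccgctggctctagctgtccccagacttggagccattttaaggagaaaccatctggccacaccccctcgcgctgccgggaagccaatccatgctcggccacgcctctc
Ndufaf4 held one NRF1 match, Ndufs5 one NRF1 and one ERR match, and Cox6a1 a pair of NRF1 matches and an ETS match close to the start. Among those that fell, Uqcrh held an ETS match and Ndufaf3 none of the 4. Ndufs4, which fell and is not shown, held none in the 250 bases before the start. It had a YY1 match in the 300 bases that run to 50 after it. Of the risers not shown, Ndufaf2, Cox5a, Cox5b and Atp5g1 held none of the 4 and Ndufb6 an ETS match only. Over the 300 bases from 250 before to 50 after the start, NRF1 letters were in 17 of the 71 members with a promoter in the reference table (23.9%), against 5.19% of all 27025 genes there and 11.9% of those tested. The shares were 22.5%, 9.93% and 20.9% for ETS, 16.9%, 7.28% and 8.56% for YY1, and 9.86%, 5.38% and 3.71% for ERR. NRF1 letters were in 3 of the 8 members with a promoter that rose with DOX, 0 of the 3 that fell and 14 of the 59 that were not called.

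In the presence of IL-17A, DOX again raised Uqcrq, Ndufaf4, Ndufaf2, Ndufb9 and Atp5g1 and lowered Ndufaf3. In DOX+IL-17A vs IL-17A, 6 members rose and 2 fell, 8 of 89 (8.99%) where 13.3% of all genes were called, 6.51% higher and 6.75% lower, and 5 passed with more than a 2-fold change (9.84% of all genes). The others called were Cox7a1, which rose, and Cox7a2l, which fell. The median was 0.14 over the members and 0.02 over all genes. Medians by complex were 0.15 for complex I subunits, 0.22 for its assembly factors, -0.06 for complex II, 0.15 for complex III, 0.32 for complex IV and 0.02 for complex V. The 3 libraries of each group did not overlap in 25 members, where 32.0% of all genes did not.

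Uqcrq rose here too (log2 fold change 1.47 ± 0.20, limma adjusted p = 0.000668), and the 95% interval of the difference between both DOX effects ran from -0.59 to 0.60 on the log2 scale. Atp5g1 rose (log2 fold change 1.23 ± 0.24, limma adjusted p = 0.00537), and the calls on Uqcrq and Atp5g1 held whichever library was left out. Ndufaf4 (log2 fold change 1.41 ± 0.33, limma adjusted p = 0.0123) and Ndufaf2 (log2 fold change 0.87 ± 0.22, limma adjusted p = 0.0169) rose in all 3 DOX+IL-17A libraries above the IL-17A libraries. Ndufb9 was at 716, 626 and 987 with DOX+IL-17A and 507, 375 and 504 with IL-17A, without overlap (log2 fold change 0.73 ± 0.22, limma adjusted p = 0.0352). Ndufaf3 was at 5.93, 4.37 and 7.49 with DOX+IL-17A and 12.8, 12.1 and 22.1 with IL-17A (log2 fold change -1.24 ± 0.33, limma adjusted p = 0.0208). Cox7a2l, which joins complexes III and IV into supercomplexes, was at 195, 228 and 385 and 572, 452 and 493 (log2 fold change -0.96 ± 0.24, limma adjusted p = 0.0169), and it did not pass in DOX vs control (log2 fold change -0.60 ± 0.23, limma adjusted p = 0.0663). Cox7a2l, like Cox7c, Ndufb3 and other members outside the naming rule, was chosen after its values were seen. The call on Cox7a1 stood on 44 reads against 1, a ratio per unit of depth of 39.0 with a 95% counting interval of 6.64 to 1573, which covers counting error only. It was lost when any one of 10 libraries was left out (limma adjusted p up to 0.112).

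Ndufaf4 was lost without DOX+IL-17A 3, IL-17A 3 or IL-17A 5 (limma adjusted p 0.0516 to 0.0531), Ndufaf2 without DOX+IL-17A 5 or IL-17A 3 (0.0623 to 0.0755) and Ndufaf3 without DOX+IL-17A 2, DOX+IL-17A 3 or IL-17A 5 (0.0554 to 0.0985). Cox7a2l was lost without DOX+IL-17A 2, DOX+IL-17A 3 or IL-17A 2 (0.0576 to 0.0757), and Ndufb9 without DOX 3 or any one of DOX+IL-17A 2 and 5 and IL-17A 2, 3 and 5 (0.0509 to 0.163). Leaving out control 1, which is in neither group but enters the shared estimate of the spread, raised the calls to 18 (15 higher, 3 lower), among them all 8 above, which is 20.2% of members while the share of all genes went from 13.3% to 21.3%. The 10 added were Atp5g2, which fell, and Cox4i1, Cox5b, Cox6a1, Ndufs5, Ndufa3, Ndufa7, Ndufa11, Atp5o and Uqcr10, which rose. Atp5g2 was at 181, 217 and 296 with DOX+IL-17A and 623, 566 and 428 with IL-17A, without overlap, and in the fit of all libraries it did not pass (log2 fold change -1.23 ± 0.48, limma adjusted p = 0.101).

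The DOX effects without and with IL-17A come from different libraries, and 6 members passed in both with the same sign: Uqcrq, Ndufaf4, Ndufaf2, Ndufb9 and Atp5g1 higher and Ndufaf3 lower. They are 42.9% of the 14 and 75% of the 8, and over all genes the shared calls were 42.1% and 70.2%. All 14 genes called in DOX vs control had the same sign in DOX+IL-17A vs IL-17A. Over the 89 members Pearson's r between both log2 fold changes was 0.41, and over all 12319 genes it was 0.72. Genes share libraries within each comparison, so these values are descriptions. No member passed for the difference between the DOX effects (0% of all genes, limma adjusted p under 0.05). Under an unadjusted limma p of 0.05 stood 1 of the 89, the pseudogene Atp5c1-ps, and 4.51% of all genes. The number of members was 0 with voom, 1 with edgeR and 4 with DESeq2. With limma it was 16 without control 3 and 12 without IL-17A 5, and 0 to 5 without any other single library, again with 0 calls. The share of all genes in these alternatives is not given here. The widest differences were -2.83 ± 1.45 (SE) for Cox7c and -2.16 ± 1.07 for Ndufb3, and their control libraries spread over more than 10-fold.

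**Figure D3:**
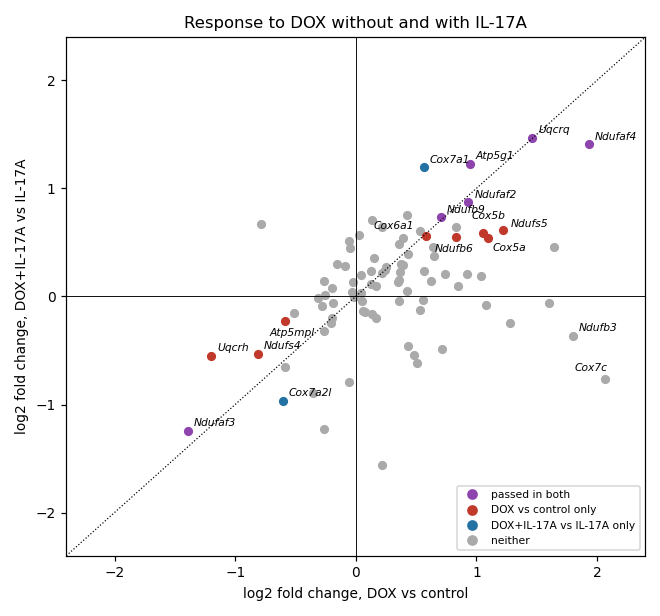
Each point is one of the 89 tested members, with its log2 fold change in DOX vs control on the horizontal axis and in DOX+IL-17A vs IL-17A on the vertical axis. The dotted line marks equal changes. Of the 6 members called in both (purple), 5 lie at the upper right and Ndufaf3 at the lower left. Cox7c and Ndufb3 (grey, called in neither) lie far below the line, and red and blue mark members called without or with IL-17A alone.

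DOX+IL-17A was also compared with the other groups. Against the control libraries that also served DOX alone, 13 members rose and 1 fell (17.7% of all genes were called, 9.37% higher and 8.34% lower), and Ndufaf4 again gave the largest value (log2 fold change 2.15 ± 0.33, limma adjusted p = 0.000694). The one that fell was Ndufaf3 (log2 fold change -1.21 ± 0.33, limma adjusted p = 0.0196). With only these groups in the fit, 3 members were called (Ndufaf4, Uqcrq and Atp5g1) and 5.76% of all genes. IL-17A on its own gave no member call against control with limma, and 0.00812% of all genes were called. Under an unadjusted limma p of 0.05 stood 1 of 89 members and 3.08% of all genes. Without control 3 the number of members was 23, without IL-17A 5 it was 18 and without control 5 it was 5, with 0 calls in each. In the fit of all libraries the one member was Ndufaf4, at 20.6 ± 7.01 (SD, n = 3) with IL-17A and 12.4 ± 5.29 (SD, n = 3) in control (log2 fold change 0.74 ± 0.33, limma adjusted p = 0.959). Adding IL-17A to DOX gave no call either (0.455% of all genes), and the median over the members was 0.10. Under an unadjusted p of 0.05 with limma stood 0 of 89 members and 6.35% of all genes. With voom, edgeR and DESeq2 on reads, 0 members were called in both comparisons, and those under an unadjusted p of 0.05 numbered 0, 2 and 2 for IL-17A vs control and 0 with each tool for DOX+IL-17A vs DOX. For these tools and the fits without a library, the share of all genes under an unadjusted p of 0.05 is not given here.

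**Figure D4:**
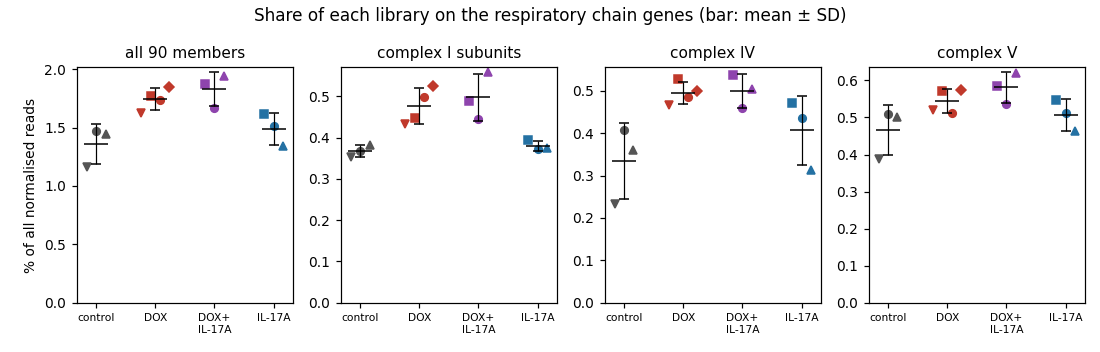
The share of all normalised reads in a library that fell on the 90 members, and on complex I subunits, complex IV and complex V (vertical axis, in percent, from 0), by condition with the mean and 1 SD. Symbols follow the library numbers, with triangles pointing down for 1 and up for 5. For all members, no DOX-treated library lies below 1.62% and no library without DOX above 1.61%. A share divides by the library's own total, so the composition scaling used in the fits drops out here.

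Summed over the 90 members, the share of normalised reads was 1.36% ± 0.169 (SD, n = 3) in control, 1.74% ± 0.0929 (SD, n = 4) with DOX, 1.83% ± 0.145 (SD, n = 3) with DOX+IL-17A and 1.49% ± 0.136 (SD, n = 3) with IL-17A. The lowest library was control 1 at 1.16%. For complex I subunits the 4 means were 0.367, 0.476, 0.498 and 0.380%, in the same order of groups, and by this share the DOX-treated libraries stood above the others. For complex IV they were 0.334, 0.494, 0.500 and 0.407%, where the highest IL-17A library overlapped the DOX-treated ones. Abundant genes weigh most in these sums, which are given without a test. A share divides by the library's own total, so the composition scaling used in the fits drops out. Those totals were 1030871 to 1129757 normalised reads without DOX and 901402 to 1008224 with DOX. Lower totals raise the shares of the DOX-treated libraries, and the part of this in the differences was not tested.

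Some members varied widely between libraries of one condition. Cox7c, a small complex IV subunit, was at 19.3, 1007 and 298 in control, 650.3, 991, 754 and 701 with DOX, 1406, 1176 and 151 with IL-17A and 558, 607 and 149.9 with both agents. It was lowest in control 1 and next lowest in the libraries numbered 5 of both IL-17A groups. Its estimate in DOX vs control was the largest of the 89 and did not pass (log2 fold change 2.06 ± 0.99, limma adjusted p = 0.144), and without control 3 it passed with an adjusted p of 0.0174. Ndufb3 was at 10.8, 251 and 105 in control and 334, 254 and 62.8 with IL-17A. Ndufa1, a small membrane subunit of complex I, was at 9.47, 88.2 and 37.7 in control and 96.8, 86.3 and 19.9 with IL-17A, and Uqcrfs1 was at 32.1, 147 and 80.3 and 219, 166 and 55.4. In each of these genes control 1 was the lowest of the 13 libraries and IL-17A 5 the lowest of its group.

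Relative to the mean of the other libraries of its group, control 1 was more than 2-fold lower in 28 of the 89 members. That is 31.5%, where 19.3% of all genes tested were lower. It was more than 2-fold higher in 10 members and in 1614 of all 12319 genes. IL-17A 5 was more than 2-fold lower in 14 (15.7%, and 9.03% of all genes). Of these 14, 13 were also low in control 1, and 650 of all 12319 genes were low in both. The 13 were Cox7c, Ndufb3, Ndufa1, Ndufa4, Ndufa6, Ndufab1, Sdhc, Uqcrfs1, Cox7a2, Atp5g3 and the copies Ndufb4b, Ndufb4c and Uqcrh-ps1. Members high in control 1 included Ndufa12, at 183, 47.7 and 55.8 in control, and Atp5k, at 955, 364 and 551. Over the 89 members, the deviations of control 1 and IL-17A 5, which share no group, had a Pearson's r of 0.82, and over all 12319 genes 0.47. Control 5 and IL-17A 5 gave -0.35 over the members. Read depth was 6583757 in control 1 and 13771197 in IL-17A 5. What set these libraries apart was not tested.

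Leaving out control 1 and the 3 libraries numbered 5 together, a choice made after this pattern was seen, left 1 control library, which was assumed to vary like the other groups. DOX vs control then gave 13 calls, 10 higher and 3 lower, 9 of them among the 14 (13.1% of all genes were called). DOX+IL-17A vs IL-17A gave 23, with 11 higher and 12 lower (19.6% of all genes were called), and 7 of them were among the 8. The lower genes then included Cox7c (-1.14), Ndufb3 (-1.02), Ndufv3 (-1.38), Uqcrfs1 (-0.87) and Sdhc (-0.82), all log2 fold changes. Cox7c, Ndufb3, Uqcrfs1 and Sdhc were among the members named above as low in IL-17A 5. Leaving that library out raised their mean with IL-17A by construction, so these values are not separate evidence of a fall. Both groups of this comparison then held only their libraries numbered 2 and 3.

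**Figure D5:**
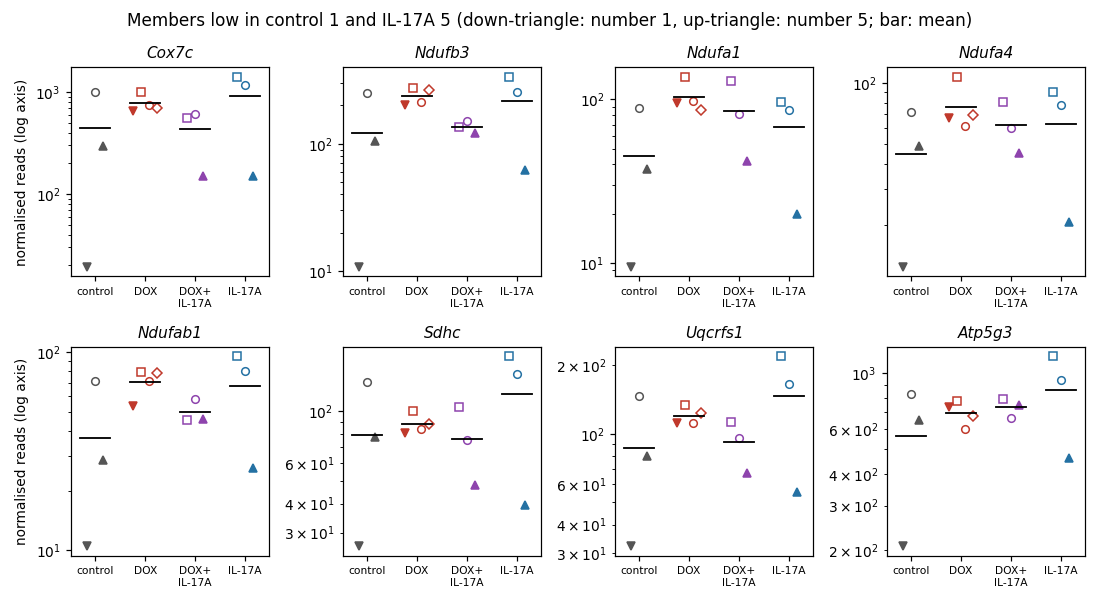
Normalised reads (vertical axis, logarithmic) of 8 members in each library, by condition, with a bar at the mean. Control 1 (triangle pointing down) is the lowest library in all 8, and IL-17A 5 (triangle pointing up) is below the other IL-17A libraries in all 8. In Cox7c the control libraries run from 19.3 to 1007.

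None of the 6 copies passed in either DOX comparison. Ndufb4b and Ndufb4c, retrocopies of Ndufb4, were at 33.9, 47.3, 38.2 and 45.3 and 36.2, 49.4, 41.8 and 45.6 with DOX, close in each library, and reads that match both cannot be assigned to one.

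Genes that work beside the chain were read from lists of their own, which were not tested as sets. Over all genes tested, 22.1% were called in DOX vs control and 13.3% in DOX+IL-17A vs IL-17A. Of 8 genes for cytochrome c and complex III outside the symbol rule, 2 rose and 1 fell in DOX vs control. Cycs, the electron carrier cytochrome c, was at 332 ± 29.0 (SD, n = 4) with DOX and 171 ± 112 (SD, n = 3) in control (log2 fold change 1.14 ± 0.29, limma adjusted p = 0.0121) and rose in DOX+IL-17A vs IL-17A as well (log2 fold change 1.65 ± 0.31, limma adjusted p = 0.00386). Cyc1, the cytochrome c1 of complex III, rose in DOX+IL-17A vs IL-17A (log2 fold change 1.02 ± 0.21, limma adjusted p = 0.00639) and did not pass in DOX vs control (log2 fold change 0.50 ± 0.20, limma adjusted p = 0.0772). Of 31 other assembly factors tested, 9 rose and 2 fell in DOX vs control (median 0.41), led by Foxred1, a complex I factor (log2 fold change 2.36 ± 0.47, limma adjusted p = 0.00303). In DOX+IL-17A vs IL-17A, 2 rose and 1, the complex IV factor Cox20, fell (log2 fold change -1.46 ± 0.24, limma adjusted p = 0.00170).

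Of 11 coenzyme Q genes, 3 rose in DOX vs control and 1 in DOX+IL-17A vs IL-17A. For this list and those that follow, the shares of all genes called were again 22.1% and 13.3%. Coq10b, a coenzyme Q binding protein, was called in both (log2 fold change 2.78 ± 0.40, limma adjusted p = 0.000349, then log2 fold change 1.75 ± 0.43, limma adjusted p = 0.0158). Of 12 regulators, Tfam, which packs and transcribes mitochondrial DNA (log2 fold change 0.74 ± 0.18, limma adjusted p = 0.00943), and Pprc1, a coactivator (log2 fold change 1.05 ± 0.27, limma adjusted p = 0.0123), rose in DOX vs control. In DOX+IL-17A vs IL-17A, 1 regulator rose and 1 fell, with 0 called above 2-fold. The one that fell was Nrf1, the factor whose letters were searched for (log2 fold change -0.93 ± 0.28, limma adjusted p = 0.0388). Nrf1 did not pass in DOX vs control. Of 13 citric acid cycle genes, 1 rose and 2 fell in DOX vs control, and Suclg2, a subunit of succinyl-CoA ligase, fell in both (log2 fold change -1.36 ± 0.24, limma adjusted p = 0.00135, then log2 fold change -1.19 ± 0.26, limma adjusted p = 0.00849). Of 5 genes that tune the chain or its response to hypoxia, 1 rose and 3 fell in DOX vs control. Higd1a, a hypoxia-induced partner of complex IV, was at 109.7 ± 14.9 (SD, n = 4) with DOX and 316 ± 58.6 (SD, n = 3) in control (log2 fold change -1.51 ± 0.28, limma adjusted p = 0.00166), and Atpif1, the inhibitor of complex V, fell too (log2 fold change -0.56 ± 0.18, limma adjusted p = 0.0351). Egln3, an oxygen-sensing hydroxylase, fell by 2.09 on the log2 scale (limma adjusted p = 0.00146). Lonp1, a matrix protease, rose (log2 fold change 0.91 ± 0.19, limma adjusted p = 0.00440).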

How the data were processed

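RNA from the 13 libraries was sequenced from the 3′ end (QuantSeq FWD kit). Per the labels and the study's methods, the authors checked reads with FastQC, trimmed them with Trimmomatic, aligned them with STAR to mm10 and counted them per gene with featureCounts. The strand setting of the counting is not given in the sources used here. The deposited values are a normalised signal, reads scaled by TMM factors and library size. They were whole multiples of 1 read (100% within 0.001 reads), so reads were recovered, with a total of 4445592 to 16930600 per library. One gene listed again with the same values was dropped. Members were taken by symbol and sorted into complexes by hand. The members and lists were chosen with earlier results of these data known.

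Genes kept by filterByExpr of edgeR 4.0.16 (12319) were fitted on log2(value + 1), pseudocount 1, by limma 3.58.1 with trend (R 4.3.3). All 4 groups shared the estimate of the spread, with Benjamini-Hochberg adjustment over all genes tested. Members were named if they passed with a fold change above 2, led their complex among those called in DOX vs control, or belonged to complex II or the tissue isoforms and their common partners; others were chosen after their values were seen. Alternatives were voom, edgeR and DESeq2 1.42.0 on the recovered reads, library size scaling, other filters, pseudocount 0.1, only the groups compared, a replicate block and leaving out libraries. The quasi-likelihood test of edgeR on these reads called 2486 genes in DOX vs control and 1511 in DOX+IL-17A vs IL-17A. The fit was tested on simulated data. Counting intervals cover counting error only. Gene positions are from GENCODE vM21 and promoters from RefSeq, both GRCm38, with 71 of 90 members matched.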

Additional observations from a re-analysis of the deposited data

Results flagged for a closer look

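Among 29 named members, 3 had 1 DOX library far from the other 3 by Dixon's test, which chance gives in about 1 in 20 groups. Ndufs5 was at 70.3 normalised reads in DOX 1 and 96.8, 97.4 and 98.7 in the other DOX libraries. Cox4i1 was at 509.2 in DOX 2 and between 428 and 440.0 in the others. Cox7a2 was at 3.94 in DOX 2 and at most 1.29 in the others, values that rest on few reads. DOX 1 was also the library with the high sum of skeletal muscle markers (313).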

How the results depend on the processing

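No named member changed sign while called. Over 23 alternatives for the members named, 438 values of called members stayed called and 67 were no longer called. Of those not called, 768 stayed so, 20 moved by more than the spread between libraries and 35 passed. In DOX vs control, Atp5g1, Cox5b, Ndufaf2, Ndufaf3, Ndufaf4, Ndufs5 and Uqcrq were called under every alternative run.

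In DOX+IL-17A vs IL-17A the 8 called members became 13 with DESeq2 and 13 with library size scaling, and 23 without control 1 and all libraries numbered 5, while the share of all genes called went from 13.3% to 17.8%, 15.9% and 19.6%. Library size scaling moved the members' medians from 0.25 to 0.43 in DOX vs control, from 0.14 to 0.35 in DOX+IL-17A vs IL-17A and from 0.30 to 0.48 in DOX+IL-17A vs control. In the latter, the 14 calls became 3 with only the groups compared (17.7% to 5.76% of all genes), and the median became 0.067 without control 1 and all libraries numbered 5. In DOX+IL-17A vs DOX, the 0 calls became 1 (Ndufb3, lower) with only the groups compared and 2 (Ndufv3 and Ndufb3, lower) without control 1 and all libraries numbered 5. The cause was not tested.

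Leaving out 1 library at a time gave 9 to 23 calls and medians of 0.18 to 0.39 in DOX vs control, 4 to 18 and 0.01 to 0.22 in DOX+IL-17A vs IL-17A, and 8 to 21 and 0.15 to 0.37 in DOX+IL-17A vs control. Over all genes the same fits called 14.4% to 22.3%, 5.59% to 21.3% and 10.3% to 20.2%. The 23 came without control 3 and were 25.8% of members, against 22.2% of all genes. It gave 0 calls in the other comparisons, with medians of -0.0045 to 0.16 in DOX+IL-17A vs DOX and 0.07 to 0.29 in IL-17A vs control.

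The replicate numbers were not taken as pairing in the main fit, since the study's methods state no such covariate. Deviations from the group means correlated above 0.1 in 8 of 13 same-numbered pairs, with a mean r of 0.15 and a lowest of -0.18. Among the 50 other pairs between groups 13 were above 0.1, with a mean of -0.04. On average same-numbered libraries were thus more alike, and 7 of 12 libraries correlated best with one of their own number. What the numbers stand for was not tested. With the number as a block, the calls went from 14 to 9 in DOX vs control (2724 to 1780 over all genes), from 8 to 11 in DOX+IL-17A vs IL-17A (1633 to 1908) and from 14 to 8 in DOX+IL-17A vs control (2182 to 1501). In DOX vs control the block ended the calls on Ndufs4, Ndufb9, Ndufb6, Cox6a1, Cox5a and Atp5mpl (limma adjusted p 0.0528 for Ndufb9 to 0.101 for Ndufb6).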

Other observations

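Ndufv3, a subunit near the NADH site of complex I, showed a wide spread within 2 groups. It was at 61.9, 247 and 225 normalised reads in control, 147, 131, 127 and 183 with DOX, 188.8, 237 and 173 with IL-17A and 87.1, 74.5 and 227 with both agents. Control 1 and the DOX+IL-17A libraries 2 and 3 were the 3 lowest of the 13 libraries, and all groups overlapped. Ndufb4, the parent of Ndufb4b and Ndufb4c, was at 24.9, 76.4 and 59.1 in control and 102, 78.0 and 47.9 with IL-17A, again lowest in control 1 and, within its group, in IL-17A 5.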
